A study of Mus musculus with 8 samples.

Results

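Dermal dendritic cells with Cd209a and Mgl2 were picked from single-cell libraries of mouse dorsal skin, and 250 cells were found among 11118 filtered cells and 26231 barcodes. A barcode was filtered in when it held 500 to 4000 genes, at most 20000 unique molecular identifiers (UMIs, the counted molecules) and at most 10% mitochondrial UMIs. A member had at least 3 UMIs of at least 2 of the MHC class II genes H2-Aa, H2-Ab1 and H2-Eb1, and at least 1 UMI of at least 2 of Cd209a, Mgl2, Cd209d, Lyz1, Ear2 and Naaa. It had no Cd207 UMI, at most 1 of the complement genes C1qa, C1qb and C1qc at 2 or more UMIs, and at most 1 of Ccr7, Ccl22, Fscn1 and Cacnb3 detected. The neighbour classes gated with the same genes were 200 C1q-positive macrophages, 204 Cd207-positive Langerhans-type cells and 20 Ccr7 Ccl22 mature dendritic cells, and the 10444 cells in none of these classes are called the other filtered cells. The 17 genes named here chose the cells, so their levels are a description and were not tested between cell classes.

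The skin came from female BALB/c mice that the labels give as 14 to 16 weeks old, sampled as 4 mm biopsies. One group was injected under the skin with PBMCsec, the secretome of irradiated human peripheral blood mononuclear cells, and the other with vehicle, with 4 libraries in each. The study's methods describe injections into preformed scars, NaCl or culture medium as the control and analysis at more than one time, and the labels map none of these to a library, so libraries were compared by treatment alone. The series carries the title of a study of mast cells and basophils, the labels do not say whether the 4 samples of a group were 4 mice, and p-values measure the spread between libraries. Cells were freed with an enzyme kit for whole skin, which leaves the cells of epidermis, dermis and follicles in 1 suspension, and counted with 10x Genomics 3′ chemistry. Nothing in the sources says how doublets were treated, and no doublet caller was run.

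Conventional dendritic cells take up antigen, cut it in lysosomes and show the peptides on MHC class II to CD4+ T cells. Those of type 2 are the main conventional dendritic cells of mouse dermis, and many carry the C-type lectins CD209a and CD301b (the product of Mgl2), which bind sugars on microbes and allergens. Monocytes that enter the skin can take on some of the same genes, while macrophages of the dermis make C1q and Langerhans cells of the epidermis make langerin (Cd207). In the class II pathway, H2-Aa and H2-Ab1 encode the chains of the A molecule, H2-Eb1 the beta chain of the E molecule, Cd74 the invariant chain that guards the groove, and H2-DMa, H2-DMb1 and H2-DMb2 the editor that loads peptides.

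Class II genes are switched on together by CIITA, which docks on factors held at the X and Y boxes before each gene. The 150 bases before the annotated start of 4 of them, chosen among the genes that hold a Y box core, are given here as examples. The core of the Y box (GATTGG, or CCAATC on the other strand) and of the X1 box (TAGCAAC, or GTTGCTA) is in capitals. The sequences are from RefSeq on GRCm38.p6, 5′ to 3′ along the gene, at chr17:34287824-34287973 (minus strand, H2-Aa), chr17:34305717-34305866 (plus strand, H2-Eb1), chr17:34153041-34153190 (plus strand, H2-DMb1) and chr17:34145099-34145248 (plus strand, H2-DMb2).
H2-Aa: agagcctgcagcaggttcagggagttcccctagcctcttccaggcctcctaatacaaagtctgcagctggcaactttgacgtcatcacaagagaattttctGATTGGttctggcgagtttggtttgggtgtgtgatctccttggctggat
H2-Eb1: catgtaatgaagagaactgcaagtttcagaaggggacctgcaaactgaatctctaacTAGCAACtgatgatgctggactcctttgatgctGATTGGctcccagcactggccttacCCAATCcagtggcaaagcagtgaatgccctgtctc
H2-DMb1: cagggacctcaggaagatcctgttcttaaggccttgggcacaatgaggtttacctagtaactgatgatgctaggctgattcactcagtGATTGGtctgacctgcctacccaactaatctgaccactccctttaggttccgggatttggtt
H2-DMb2: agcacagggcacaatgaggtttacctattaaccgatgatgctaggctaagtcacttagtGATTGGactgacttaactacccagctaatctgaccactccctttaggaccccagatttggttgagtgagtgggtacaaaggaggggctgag
The starts are those of RefSeq. GENCODE M21, used for gene positions here, places H2-DMb1 and H2-DMb2 from 34153072 and 34143307, so the stretches printed for these genes lie in part or whole inside its gene spans. The Y core began 49 bases before the start in H2-Aa, 60 in H2-Eb1, 62 in H2-DMb1 and 91 in H2-DMb2. H2-Eb1 also held a reversed Y core at 35 bases and an X1 core at 93 bases before the start. Of 20 listed class II genes, 16 were in the files and 12 had promoter entries of 250 bases before to 50 after a start. Of the 14 entries of these 12 genes, 8 held a Y core, against 16.1% of 32851 promoters of the same length. They belonged to H2-Aa, H2-Eb1, H2-Eb2, H2-DMa, H2-DMb1, H2-DMb2, H2-Oa and H2-Ob, so not to H2-Ab1 or Cd74. The X1 core was in 3.66% of those promoters and both cores were in 0.612%. A match of letters is a description of the sequence and not a bound site.

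The members were spread over all libraries. PBMCsec libraries 1 to 4 held 38, 14, 53 and 40 of these cells, and vehicle libraries 1 to 4 held 12, 13, 51 and 29. The libraries themselves held 27786595, 18578561, 33908551 and 37880651 UMIs after PBMCsec and 14753926, 16460623, 33333619 and 30494307 after vehicle, so the libraries numbered 1 and 2 were the smaller ones in both groups. A member held a median of 6912.5 UMIs (lowest 937, highest 18583) and 2198.5 genes, close to the 7516 UMIs of the other filtered cells. Of the 250 barcodes, 2 also occurred in another library.

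The summed dendritic cell profiles of PBMCsec library 2 and vehicle library 2 correlated with those of the other libraries at 0.808 to 0.864 and at 0.808 to 0.866, on a log scale over genes, as a description. Of the 14 members of PBMCsec library 2, 3 cells with 16067 to 17484 UMIs, chosen after their values were seen, held most of its UMIs of several inflammatory and stress genes, and the list medians between treatments are given with and without this library. The keratinocyte list made up 0.355% of the UMIs of its members and 0.330% in vehicle library 3, against 0.0121% in vehicle library 1, with Krt14 as the most abundant of its 12 genes (632 UMIs over all members) and none of them at 0. The part of free or attached keratinocyte RNA in the results was not tested.

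Class II genes were at a high and even level in the members. H2-Aa stood at 13188, 11910.5, 14306 and 12614 counts scaled to a total of 1000000 UMIs (CPM) in the PBMCsec libraries and at 11094, 12340, 14813 and 14362 CPM in the vehicle libraries. H2-Ab1 averaged 9500 ± 1057 CPM (SD, n = 8) and H2-Eb1 averaged 7756 ± 957 CPM. The libraries overlapped between the groups for all of these, and every member held H2-Aa and H2-Ab1, as the rule nearly requires. Reads had been aligned to mm10, the genome of C57BL/6J mice, while BALB/c mice carry other class II alleles, and the effect on these levels was not tested.

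The lectins were more scattered. Cd209a, at GRCm38 chromosome 8 from 3743397 to 3748984, was found in 168 members (67.2%), against 19.5% of the macrophages, 4.90% of the Langerhans-type cells and 0.144% of the other filtered cells. Its level was 1453, 774, 736 and 694 CPM after PBMCsec and 541, 1011, 657 and 812 CPM after vehicle, so PBMCsec library 1 was high and the rest overlapped. Mgl2, at chromosome 11 from 70130329 to 70137550, was found in 191 members (76.4%), against 53.0% of the macrophages, 29.4% of the Langerhans-type cells and 0.316% of the other filtered cells. It stood at 1767, 505, 1258 and 1347 CPM after PBMCsec and at 641, 1668, 1703 and 1412 CPM after vehicle, and PBMCsec library 2 and vehicle library 1 were the low ones. Cd209d, a close relative of Cd209a on the same stretch of chromosome 8, was found in 141 members (56.4%), in 30.5% of the macrophages, 8.82% of the Langerhans-type cells and 0.268% of the other filtered cells.

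**Figure D1:**
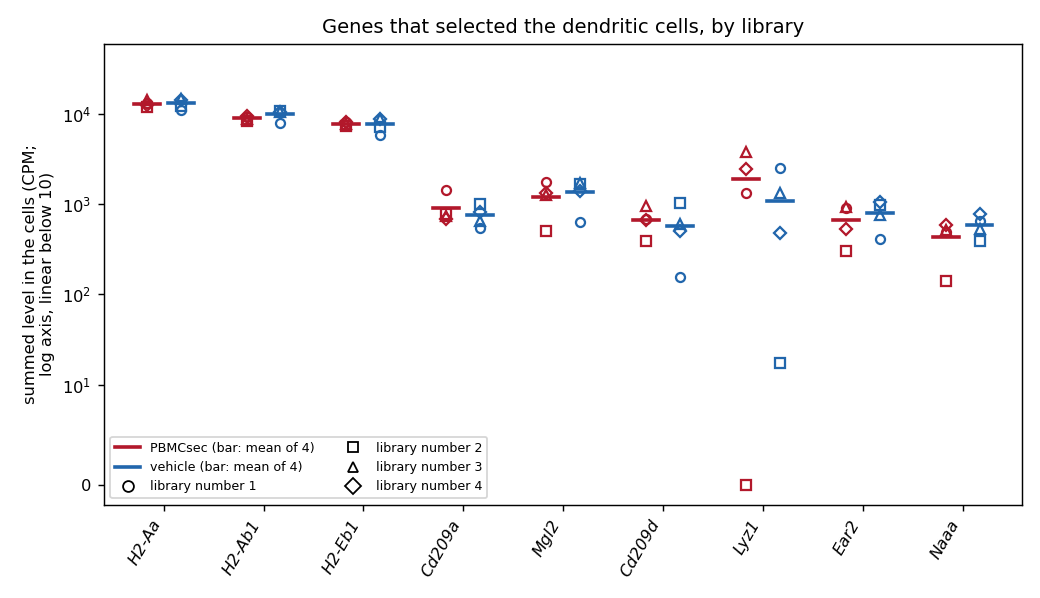
Summed level of 9 of the genes that chose the cells, in CPM on a log axis that is linear below 10, for each of 4 PBMCsec and 4 vehicle libraries (symbols by library number, bars are means). The class II genes lie close together in every library, and Lyz1 runs from 0 in PBMCsec library 2 to 3798 CPM in PBMCsec library 3.

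The remaining genes of the rule marked different cells. Lyz1, a lysozyme, was found in only 91 members (36.4%), with 1337, 0, 3798 and 2478 CPM after PBMCsec and 2499, 17.3, 1333 and 474 CPM after vehicle, and it was thus near absent from the libraries numbered 2. Naaa, which breaks down fatty acid ethanolamides in lysosomes, was found in 198 members (79.2%) but also in 42.0% of the macrophages, 24.0% of the Langerhans-type cells and 10.5% of the other filtered cells. Ear2, a ribonuclease, was found in 144 members (57.6%), against 12 of the 200 macrophages, 1.96% of the Langerhans-type cells and 0.393% of the other filtered cells. In the last 500 bases of their transcripts, Ear2 shares 13.8% of 75-base windows with Ear10 and Lyz1 shares 7.04% with Lyz2, so part of their reads could belong to the relative, while the last 500 bases of Cd209a, Cd209d and Mgl2 share none with their relatives. Clec10a, the neighbour of Mgl2 in sequence, shares 10.01% of its windows with Mgl2.

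Of the 250 members, 59 had exactly 2 of the 6 genes and 191 had 3 or more. Of the cells that met every other demand, 59 had 1 of the 6 genes and 120 had none. Only for C1q failed 60 cells, of which 56 had all 3 C1q genes at 2 or more UMIs. Only for Cd207 failed 29, 25 of them with 2 or more UMIs. Only for class II failed 28, 21 of them with no class II gene at 3 UMIs, and 3 failed only for the Ccr7 group. A further 83 barcodes met every gene demand with over 10% mitochondrial UMIs. At the limit of 5% that the study used, 184 members stayed.

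The lectins of the name are among the genes that chose the cells, so their detection does not test the name. They were found in many members but not in all. Both Cd209a and Mgl2 were detected in 146 cells (58.4%), Cd209a alone in 22, Mgl2 alone in 45 and neither in 37 (14.8%), which entered through Lyz1, Naaa, Ear2 or Cd209d. Of these 4 groups the one with Mgl2 alone had the lowest median depth, 4486 UMIs, against 7306.5 with both, and the part of depth in the missing lectins was not tested. Of genes that the rule did not use, Flt3 or Zbtb46, a receptor and a transcription factor of conventional dendritic cells, was detected in only 78 members (31.2%). Flt3 was found in 26.0% of members, in 47 of the 204 Langerhans-type cells and in 0.268% of the other filtered cells.

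Small groups of members carried markers of other dendritic cells. Xcr1 or Clec9a, which mark conventional dendritic cells of type 1, was detected in 20 members, 9 of which had neither lectin. These 20 cells held 64.4% of all Irf8 UMIs and 27.5% of all Naaa UMIs of the members. In 5 members at least 2 of the plasmacytoid markers Siglech, Ccr9, Klk1, Cox6a2 and Pacsin1 were found, and these held 88 of 89 Siglech UMIs. At least 1 C1q gene had a UMI in 19 members, at least 2 T cell receptor complex genes in 1 and at least 2 B cell genes in 0 of 250, which allows a share of cells with such UMIs of up to 1.2%, whatever the cells express below detection. Cpa3 of mast cells and Ms4a1 of B cells had no UMI in any member.

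Within the class, cells with both lectins differed from the rest in the genes below, in all or most libraries. The rule did not use these genes, they were picked once their values had been seen, and no count over all genes is given. Others differed less, such as the receptor gene Csf1r, found in 54.1% of cells with both lectins and in 51.4 to 62.2% of the cells with 1 or neither. The 146 cells with both had more Cd74, at 29334 ± 5863 CPM (SD, n = 8 libraries) against 14345 ± 3724 CPM in the remaining 104 cells, and were higher in 8 of 8 libraries. Cd209e, another gene of the Cd209 cluster, averaged 550 against 52.9 CPM and Cd209c averaged 72.2 against 6.23 CPM, both higher in 8 of 8 libraries. Mrc1, the mannose receptor, averaged 785 against 504 CPM and S100a4, a calcium-binding protein of motile cells, 2337 against 1301 CPM, again higher in 8 of 8. The lectin Clec10a and Flt3 were higher in 7 of 8 libraries, with means of 448 against 191 CPM and 102 against 43.0 CPM, though part of the Clec10a reads could belong to Mgl2, which split the cells.

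Other genes ran the opposite way. Retnla, which encodes the secreted protein RELM-alpha of type 2 immune responses, averaged 2106 ± 2108 CPM in cells with both lectins and 11749 ± 6876 CPM in the rest, and was lower in 8 of 8 libraries. The matrix gene Fn1 averaged 652 against 1847 CPM and Lyz2, the lysozyme of macrophages and monocytes, 5455 against 9550 CPM, each lower in 6 of 8 libraries. Irf8, a transcription factor of type 1 and plasmacytoid dendritic cells and of monocytes, averaged 36.5 against 558 CPM and was lower in 7 of 8 libraries. Of its 461 UMIs in the members, 297 were in the 20 cells with Xcr1 or Clec9a and 127 in the 5 cells with plasmacytoid markers, so few cells held most of them. Plac8 averaged 173 against 575 CPM, also lower in 7 of 8, and the same 5 cells held 148 of its 655 UMIs. These cells were split by genes of the rule, so the values are a description and no test was run.

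**Figure D2:**
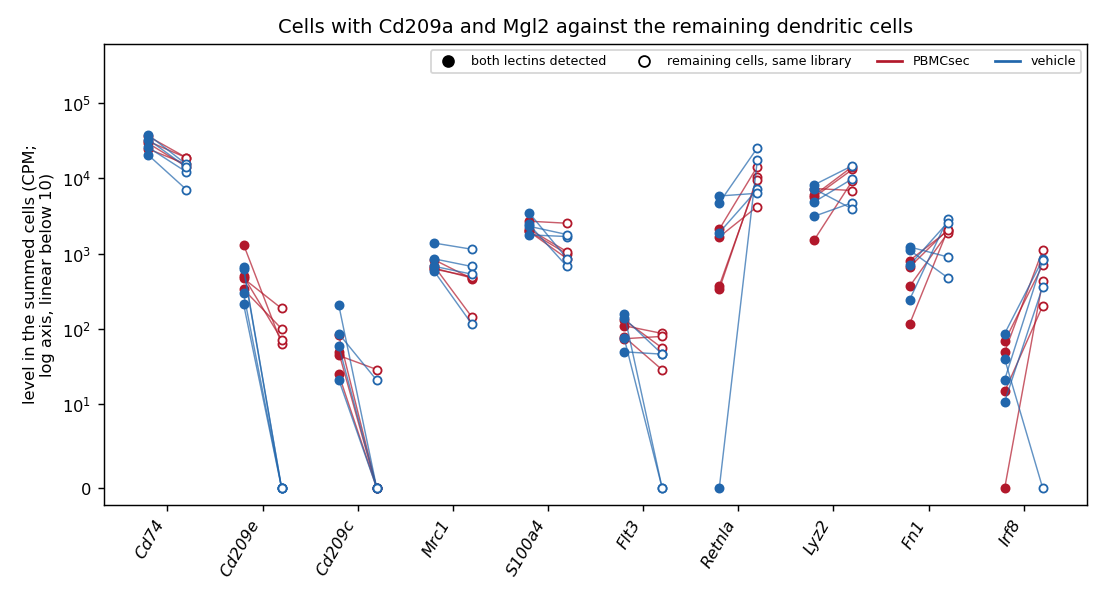
Level of 10 genes (CPM, log axis, linear below 10) in cells with both Cd209a and Mgl2 (filled) and in the remaining dendritic cells of the same library (open), joined by a line for each of 8 libraries. Cd74 and Cd209e are higher in the cells with both lectins in 8 of 8 libraries, and Retnla is lower in 8 of 8.

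Against the other filtered cells, which leave out the 3 neighbour classes, the members were higher in the genes that handle class II beyond those of the rule. Of 2006 genes with a mean of at least 100 CPM in either class, 347 (17.3%) were at least 2-fold higher on average and higher in every library, and 378 (18.8%) were at least 2-fold lower and lower in every library. Cd74 averaged 23931 ± 4675 CPM in the members and 228 ± 229 CPM in the other filtered cells. H2-DMb1 averaged 1101 against 8.63 CPM and H2-DMa 1168 against 17.6 CPM. Ctss, the cathepsin that trims the invariant chain, averaged 1294 against 30.2 CPM. Of the 9 class II genes over 100 CPM that had not chosen the cells, 8 were higher by this rule and 1 was lower, with a median log2 ratio of 4.58, where all 2006 genes had a median of -0.13. Of 18 lysosome and lipid handling genes outside the rule, 8 were higher and 5 lower. A gene can pass the limit of 100 CPM through the class where it is high. The list counts here and against the neighbours below are therefore a description.

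The 15 highest ratios, with the genes of the rule left out, held other genes as well. Retnla averaged 5884 ± 2586 CPM against 18.5 CPM but was detected in only 76 members (30.4%), in 36.5% of the macrophages and in 2.71% of the other filtered cells. Lyz2 averaged 7420 against 104 CPM, the small secreted protein gene Wfdc17 1387 against 12.2 CPM and Mrc1 691 against 5.64 CPM. Cd209e, which the rule did not use, averaged 370 ± 232 CPM against 0.239 CPM, with 823, 241, 345 and 283 CPM after PBMCsec and 121, 570, 413 and 164 CPM after vehicle, so the groups overlapped. The chemokine genes Ccl6 and Ccl9 averaged 1060 against 29.6 CPM and 829 against 15.3 CPM. The Fc receptor Fcgr2b, the Fc receptor-like gene Fcrls and the complement regulator Cfp were also among these 15, at 596, 339 and 500 CPM. Cxcl3 was there too, but it was higher in only 4 of 8 libraries and reached 2787 CPM in PBMCsec library 2 alone.

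Of the 3 classes compared, the C1q-positive macrophages had the fewest genes at least 2-fold higher or lower in every library. They were 200 cells by the same filters, with a median of 4757 UMIs. Vehicle library 2 held 2 of them and was left out, which left 7 libraries. Of 1769 genes, 84 (4.75%) were at least 2-fold higher in the members and higher in each of the 7 libraries, and 175 (9.89%) were lower. The 20 Ccr7 Ccl22 mature dendritic cells were not compared. Among the genes higher in each of the 7 libraries, Lsp1, an actin-binding protein of leukocytes, averaged 1173 ± 280 CPM against 94.4 ± 39.8 CPM. Cd7 averaged 160 CPM and had no UMI in the macrophages, and Cd209e averaged 341 against 11.1 CPM. The transcription factor gene Bcl11a averaged 134 against 3.98 CPM, the surface protein gene Cd24a 139 against 7.97 CPM and the adhesion regulator Cytip 261 against 29.6 CPM, with Sept3 and Lmo1 completing the 8 highest ratios of such genes outside the rule. Genes carried by fewer libraries had higher ratios than some of these, among them Cxcl3, at 407 against 4.14 CPM and higher in 3 of 7 libraries.

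Macrophage genes were low in the members. The chemokine gene Ccl8 averaged 144 CPM against 9517 CPM, and the 144 CPM came mostly from PBMCsec library 2 (921 CPM). Pf4, a platelet chemokine that tissue macrophages also make, averaged 27.3 against 1530 CPM, the scavenger receptor Stab1 2.57 against 415 CPM and the folate receptor Folr2 13.3 against 495 CPM. Hal, Cbr2, Gas6 and Ccl7 were the other 4 of the 8 lowest ratios among genes lower in each of the 7 libraries, again without the genes of the rule. Of the macrophage list without its C1q genes, 17 of 19 genes over 100 CPM in either class were lower in the members and none was higher. Of 10 such genes of the type 2 dendritic cell list outside the rule, 1 was higher and 2 were lower, with a median log2 ratio of 0.22. Of 11 such genes of the monocyte list, 2 were higher and 3 were lower, with a median of 0.38.

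The Cd207-positive Langerhans-type cells, 204 cells with a median of 7486 UMIs, differed in other genes. PBMCsec library 2 held 3 of them and was left out. Of 1726 genes, 211 (12.2%) were at least 2-fold higher in the dendritic cells and higher in each of 7 libraries, and 205 (11.9%) were lower. Retnla averaged 6135 against 68.1 CPM, Ccl6 1065 against 8.26 CPM and Plac8 332 against 1.58 CPM. Mrc1 averaged 723 against 15.2 CPM, and Zeb2, a transcription factor of monocytes and type 2 dendritic cells, 890 against 29.5 CPM. Clec10a, Ccl9 and Fn1 were also among the 8 highest ratios of genes higher in each of the 7 libraries, outside the genes of the rule. Of the 12 C-type lectins and uptake receptors over 100 CPM in either class that had not chosen the cells, 10 were higher in the dendritic cells and 1 was lower. Some of them, such as Mrc1, pass that limit in the dendritic cells alone, so the count is a description.

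The 8 lowest ratios against these cells are of genes lower in each of the 7 libraries, without the genes of the rule. Epcam, the adhesion protein of Langerhans cells and epithelium, averaged 42.5 against 1642 CPM. Mfge8 averaged 12.5 against 2130 CPM. The prostaglandin and leukotriene enzymes Hpgds, Ltc4s and Ptgs1 averaged 1.04 against 1040, 7.18 against 928 and 18.9 against 951 CPM. Lpar3, H2-M2 and Tnfaip2 were the other 3, and Lpar3 had no UMI in the members of the 7 libraries, against 324 CPM. Xcr1, a marker of type 1 dendritic cells, averaged 73.9 CPM in this class.

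Of the class II helper genes, Cd74 and H2-DMa lay between the neighbours and Ciita lay above the macrophages. Others did not follow. Of 9 class II genes outside the rule and over 100 CPM, 3 were at least 2-fold higher than in macrophages in every library and 3 were lower. Against the Langerhans-type cells 1 of 10 was higher and 3 were lower. Each pair of means is taken over the 7 libraries that hold both classes. Cd74 averaged 24716 CPM in the dendritic cells against 14312 CPM in macrophages, higher in 7 of 7 libraries, and 24391 against 38178 CPM in the Langerhans-type cells, lower in 7 of 7. H2-DMa followed the same order, with 1188 against 523 CPM and 1203 against 2170 CPM. Ciita, the class II activator, averaged 276 CPM against 90.1 CPM in macrophages. Against the Langerhans-type cells it averaged 330 against 274 CPM and was higher in 5 of 7 libraries. Ccr2, the receptor that brings monocytes and dendritic cell precursors into tissue, averaged 1029 against 544 CPM in macrophages and 1031 against 74.6 CPM in Langerhans-type cells, higher in 7 of 7 libraries each time. Csf1r, the receptor for the macrophage growth factor, was lower than in both, at 191 against 840 CPM and 183 against 826 CPM.

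**Figure D3:**
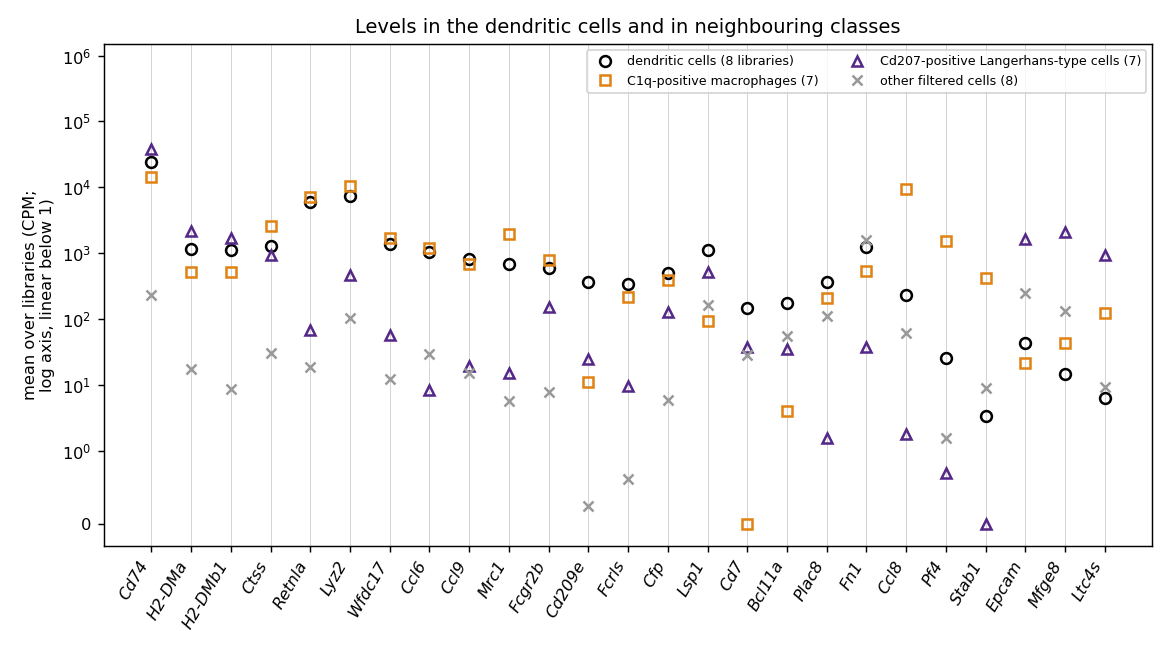
Mean level over libraries (CPM, log axis, linear below 1) of 25 genes in the dendritic cells, the C1q-positive macrophages, the Langerhans-type cells and the other filtered cells. Cd74 and H2-DMa lie between macrophages and Langerhans-type cells, Ccl8 and Pf4 peak in macrophages, and Epcam and Mfge8 peak in Langerhans-type cells.

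The share of these cells did not separate the treatments. They made up 3.52%, 2.65%, 2.09% and 2.50% of the filtered cells after PBMCsec and 3.77%, 3.18%, 1.76% and 1.66% after vehicle, so the groups overlapped. The exact (Clopper-Pearson) 95% interval, for counting error only, was 2.50 to 4.80% in PBMCsec library 1 and 1.12 to 2.38% in vehicle library 4, the lowest. The means were 2.69% ± 0.601 and 2.59% ± 1.05 (SD, n = 4 each), a difference of 0.0965 percentage points (exact permutation test, two-sided, p = 0.886). The difference was -0.394 percentage points in the libraries numbered 1 and 2 alone and 0.586 in those numbered 3 and 4 alone. A lower share can mean fewer dendritic cells or more of other cells, and a lower summed level fewer cells of a kind or less RNA in each, and these cannot be told apart.

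Among the gated antigen-presenting cells (members, macrophages, Langerhans-type and Ccr7 Ccl22 mature dendritic cells) the members made up 38.5% ± 5.87 after PBMCsec and 44.6% ± 12.3 after vehicle (exact permutation p = 0.486). Their median depth was 9124 ± 2837 against 8262 ± 3458 UMIs (exact permutation p = 0.657) and their mitochondrial share 3.56% ± 0.340 against 4.19% ± 1.42 (exact permutation p = 0.629). These 3 and the share of filtered cells had adjusted p-values of 0.876 or 0.886 over the 4 exact tests, and 4 against 4 libraries allow no exact p under 0.0286. After thinning each cell to 1000 UMIs, which left out 4 shallower cells of PBMCsec libraries, 64.9% ± 6.84 against 53.4% ± 25.0 kept Cd209a or Mgl2, and without thinning 89.8% against 79.3% had one. Vehicle library 1 was the low one, with 16.7% after thinning, and as both genes chose the cells this share was not tested.

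In the main fit, with a filter on low counts and no block, no gene passed between PBMCsec and vehicle in the members. Counts were summed over the members of each library, and edgeR's quasi-likelihood test called 0 of 3225 genes higher (0%) and 0 lower (0%) after Benjamini-Hochberg adjustment (limit 0.05). Without the adjustment there were 62 genes on the higher side (1.92%) and 34 on the lower side (1.05%), 96 in all (2.98%). DESeq2 called 0 as well, with 36 and 21 at an unadjusted p under 0.05. With the library number as a block edgeR called 1 of 3225 genes. Without the filter it called 43 of 13693 genes higher and 30 lower. The libraries of the groups did not overlap for 40 genes that were higher (1.24%) and 30 that were lower (0.93%), 70 in all (2.17%).

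The 10 genes with the lowest unadjusted p in each direction are given as values, and edgeR gave each of them an adjusted p of 1 after rounding. Cd7, a surface protein of lymphocytes and some dendritic cells, was at 145, 312, 179 and 389 CPM scaled by trimmed means (TMM) after PBMCsec and at 162, 48.0, 69.8 and 31.7 after vehicle. This is a log2 difference of 1.72 ± 0.45 (SE), and vehicle library 1 overlapped with the PBMCsec libraries. The interferon-induced gene Ifi27l2a was at 1472, 1623, 880 and 1849 against 849, 845, 743 and 850 TMM CPM, with a log2 difference of 0.82 ± 0.23 and no overlap. P2rx4, an ATP-gated channel, differed by 1.20 ± 0.35, and Mff, a mitochondrial fission factor, by 1.13 ± 0.33 on the log2 scale, also without overlap. Tspan13, Eif2s1, Cd300a and Sys1 had log2 differences of 0.90 or more.

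Clec4e and Fth1 were highest in PBMCsec library 2. Clec4e, the lectin Mincle that senses damaged cells and mycobacterial lipid, was at 85.3, 808, 55.4 and 49.6 TMM CPM after PBMCsec and at 24.3, 48.0, 8.21 and 6.35 after vehicle. Its log2 difference was 3.61 ± 1.07 and fell to 1.77 without PBMCsec library 2. In PBMCsec libraries 1 and 3 few cells carried Clec4e as well, with at most 16 and 8 UMIs in a cell. DESeq2 gave Clec4e no p-value. With the library number as a block edgeR called it, at a log2 difference of 3.18 and an adjusted p of 0.0184, and it was the only gene called in that fit (0.031%). Fth1, the heavy chain of the iron store ferritin, was at 5422, 21718, 5756 and 4968 against 3500, 4790, 3909 and 3357 TMM CPM. Its log2 difference was 1.28 ± 0.41, and 0.46 without that library.

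On the lower side, Lmna, which encodes the nuclear lamins A and C, was at 137, 220, 192 and 190 TMM CPM after PBMCsec and at 234, 317, 382 and 425 after vehicle. This log2 difference of -0.90 ± 0.25 came without overlap of the groups. Stt3b, a subunit of the enzyme that adds sugars to new proteins, was at 33.4, 28.4, 52.1 and 41.4 against 72.8, 76.8, 69.8 and 69.8 TMM CPM, at -0.83 ± 0.31. Tnip3, an inhibitor of NF-kB signalling, was at 267, 255, 179 and 190 against 509, 259, 312 and 400 TMM CPM. Its libraries overlapped, with PBMCsec the lower at each library number, and the fit with the block did not call it. The other 7 genes, Kansl1, Palld, the linker histone gene Hist1h1c, Glipr1, Actr1a, Nucks1 and Plxdc2, had log2 differences between -1.28 and -0.82.

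**Figure D4:**
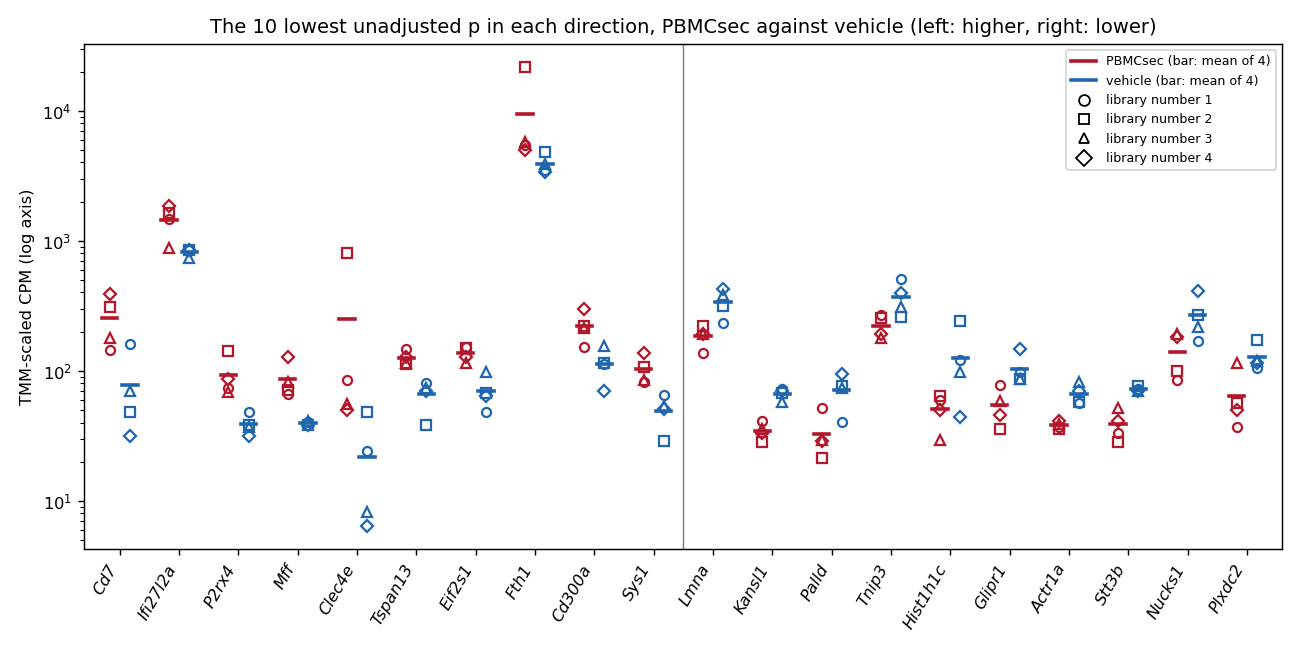
TMM-scaled CPM (log axis) of the 10 genes with the lowest unadjusted p in each direction for 4 PBMCsec and 4 vehicle libraries (symbols by library number, bars are means). PBMCsec library 2 lies far above the others for Clec4e (808) and Fth1 (21718). None of the 20 genes passed the adjusted test in the main fit, with a filter on low counts and no block.

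Antigen presentation genes lay near the middle of all genes. Over the 3225 genes tested the median log2 difference was -0.00, with 1605 higher and 1620 lower. The list counts here leave out the genes that chose the cells. Of 10 class II genes tested, 5 were higher and 5 lower with a median of 0.01, and 0 passed. Without PBMCsec library 2 the split was 6 higher and 4 lower with a median of 0.12. H2-DMb2, whose promoter is printed above, had the lowest p of them, at 286, 213, 310 and 285 TMM CPM after PBMCsec and 307, 403, 443 and 451 after vehicle. That is a log2 difference of -0.55 ± 0.22 with an unadjusted p of 0.0263 in edgeR, and PBMCsec library 3 lay just above vehicle library 1. At each library number PBMCsec was the lower for H2-DMb2, and the fit with the block did not call it. Of 13 class I genes, 8 were higher and 5 lower with a median of 0.01 (-0.03 without that library), and the peptide transporter gene Tap1 was on the lower side (-0.66 ± 0.27). Of 14 C-type lectins and uptake receptors, 4 were higher and 10 lower with a median of -0.21, and of -0.22 without that library. Clec4e, at 3.61 and called with the block, is 1 of the 4.

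The inflammatory lists leaned to the higher side, and without PBMCsec library 2 the NF-kB and cytokine lists did not. None of their genes passed in the main fit, while Cxcl2, Ccl24 and Clec4e were called without the filter on low counts. Of 7 chemokine genes, 5 were higher with a median of 0.85, and 5 with a median of 0.35 without that library. Cxcl2, which attracts neutrophils, was at 1483, 10214, 704 and 323 TMM CPM after PBMCsec and 1835, 432, 82.1 and 159 after vehicle. Its log2 difference was 2.36 ± 1.04 and lay between 0.45 (without PBMCsec library 2) and 3.89 when each library was left out. Ccl24, which attracts eosinophils, was at 145, 943, 143 and 62.0 against 154, 173, 37.0 and 38.1 TMM CPM, a log2 difference of 1.73, and 0.35 without PBMCsec library 2. For both genes PBMCsec library 2 was the high one and the others overlapped. Of 16 NF-kB and inflammatory genes, 13 were higher with a median of 0.39, but 7 with a median of -0.01 without that library. Clec4e, called with the block, is 1 of these 16. Of 3 cytokine genes, 2 were higher with a median of 0.23, but 1 with a median of -0.44 without that library. Of 10 interferon-stimulated genes, 9 were higher with a median of 0.52, and 8 with a median of 0.31 without that library. Ifitm2 stood at 604, 1389, 499 and 1320 against 485, 374, 591 and 685 TMM CPM.

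Receptors and lysosomal genes showed smaller medians. Of 15 cytokine receptor genes, 11 were higher with a median of 0.26 (9 and 0.25 without PBMCsec library 2). The interferon-gamma receptor gene Ifngr1 stood at 226, 170, 192 and 207 against 186, 96.0, 115 and 102 TMM CPM, with 1 library of each group in the range of the other. At each library number PBMCsec was the higher for Ifngr1, and the fit with the block did not call it. Of 18 lysosome and lipid handling genes, 13 were higher with a median of 0.10, but 6 with a median of -0.08 without PBMCsec library 2. Of 9 type 2 response genes, 3 were higher and 6 lower with a median of -0.36, and again 3 and 6 with a median of -0.27 without that library. The 4 glucocorticoid response genes tested were on the lower side with a median of -0.15, and without that library 3 of the 4 were, with a median of -0.19. None of these genes passed in the main fit, and Ccl24 of the type 2 list was called without the filter on low counts. The 26 immediate early and dissociation stress genes, which rise when skin is digested, split into 12 higher and 14 lower with a median of -0.14, and of -0.04 without that library.

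The cell cycle list had the lowest median. Of 10 genes tested 9 were lower, with a median log2 difference of -1.14 (-0.86 without PBMCsec library 2). In the main fit 0 passed, though Hmgb2 was called without the filter on low counts. Hmgb2, a chromatin protein of dividing cells, was at 100, 120, 254 and 285 TMM CPM after PBMCsec and 80.8, 643, 255 and 984 after vehicle, with vehicle libraries 2 and 4 high and vehicle library 1 the lowest of all. Mki67 or Top2a, genes of dividing cells, had a UMI in 1, 0, 11 and 3 members after PBMCsec and in 3, 4, 7 and 5 after vehicle, 34 of 250 in all. These 34 cells had a median of 9875 UMIs, deeper than the 6912.5 of all members. Per library this was 7.72% ± 9.23 against 21.7% ± 7.67 (SD, n = 4), and PBMCsec library 3 at 20.8% lay within the vehicle range of 13.7 to 30.8%. The same shares were 11.1% ± 5.41 and 15.7% ± 23.1 in the macrophages (13 of 135 and 5 of 65 cells, with vehicle library 2 at 1 of 2 cells), 19.6% ± 22.8 and 23.4% ± 6.61 in the Langerhans-type cells (24 of 104 and 21 of 100), and 15.4% ± 3.83 and 14.5% ± 1.36 in the other filtered cells. No difference between classes was tested.

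The 3 cells of PBMCsec library 2 named above were rich in chemokine, iron and oxidative stress genes. They held 531 of 549 Cxcl1, 1365 of 1441 Cxcl2 and all 475 Cxcl3 UMIs of its 14 members. The same cells held 555 of 571 UMIs of the haem oxygenase gene Hmox1, 1974 of 3064 of Fth1, 69 of 70 of the cystine transporter gene Slc7a11 and all 158 of Il6. Of 177 Clec4e UMIs in all 250 members, 112 were in these 3 cells and 97 in 1 of them. They carried 121, 222 and 321 UMIs of H2-Aa, 4, 3 and 6 of Cd209a and 0, 5 and 1 of Mgl2, and 1 of them also held 1 UMI each of C1qa and C1qb. The rule had used these genes, and it fixed the absence of Cd207. Hmox1 in this library stood at 3350 CPM in the members, 734 CPM in the macrophages and 105 CPM in the other filtered cells.

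**Figure D5:**
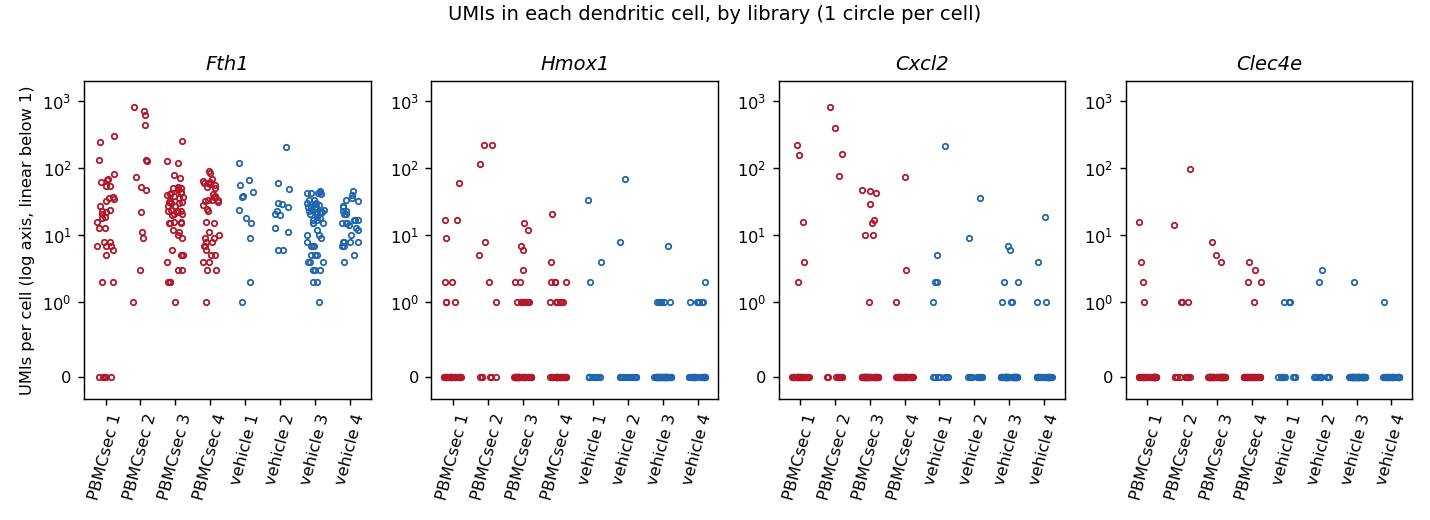
UMIs of Fth1, Hmox1, Cxcl2 and Clec4e in each of the 250 dendritic cells (log axis, linear below 1), by library, with 1 circle per cell and a small sideways scatter. In PBMCsec library 2 a few cells rise above the rest for Fth1 and Hmox1, and 1 cell holds 97 of the 177 Clec4e UMIs. Cxcl2 is also high in single cells elsewhere, with 223 UMIs in PBMCsec library 1 and 217 in vehicle library 1.

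Whether the treatment difference itself differed between the dendritic cells and the C1q-positive macrophages was tested over 7 libraries with both classes. The edgeR interaction term called 1 of 3728 genes (0.0268%) at an adjusted p under 0.05, and 110 (2.95%) had an unadjusted p under 0.05. The gene was Hbb-bs, a beta globin of red blood cells, at a log2 difference of differences of -8.39 ± 1.15 with an adjusted p of 0.0104 in edgeR. In the dendritic cells 603 of its 659 UMIs were in 1 cell of vehicle library 3, which held 4477 UMIs, no Cd209a and no Mgl2. Hbb-bs stood at 2478 TMM CPM in the dendritic cells of that library, between 0 and 103 in those of the other 6, and between 0 and 111 in the macrophages. No gene was called without vehicle library 3, without PBMCsec library 3 or without PBMCsec library 4, and 2 were called without vehicle library 4.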

How the data were processed

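Single-cell RNA-seq of dorsal skin was used from 4 PBMCsec and 4 vehicle libraries. The files deposited by the authors hold raw UMI counts of each gene in each barcode from Cell Ranger (version 3.0.2 in the submitters' notes and files, 4.0 in the study's methods; mm10), not normalized. Gm42418, Gm17056 and Gm26917 were removed. Members and gene lists (32 lists, 516 genes) were chosen with earlier results of these data known. Class levels are CPM of counts summed per library (ratios with a prior of 10 CPM). Sums were tested with edgeR 4.0.16 (R 4.3.3, TMM, filterByExpr, Benjamini-Hochberg), with 8 keratin and collagen genes left out as in the study, and with DESeq2 1.42.0 as an alternative. Single values were tested with exact permutation over 70 labellings (scipy 1.17.1, two-sided). Scripts were tested on simulated data. Named were the rule genes, the 10 lowest p in each direction, the 15 highest ratios over other cells and the 8 highest and lowest against each neighbour among genes that went one way in every library (both without the rule genes), and list members. Other named genes (the lectin split, the cells of PBMCsec library 2, list genes by p) were chosen after their values were seen. Deviations of equally numbered libraries correlated at 0.283, 0.103, 0.265 and 0.292 over 3108 genes, each over 0.1. Library numbers were therefore taken to pair them in the alternatives with a block. The main fit and the exact tests over 70 labellings did not pair the libraries. Unequal numbers ranged from -0.343 to 0.178, and PBMCsec library 2 was nearer to vehicle library 1 (0.126) than to its own number. Positions are GENCODE M21 (GRCm38) and promoters RefSeq (GRCm38.p6). Intervals cover counting error only.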

Additional observations from a re-analysis of the deposited data

Results flagged for a closer look

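Of 82 groups of 4 libraries checked for a library far from the others, 9 had one, and chance gives about 1 in 20. Among the PBMCsec libraries, library 3 had the lowest share of members among antigen-presenting cells, 29.8% (nearest 40.4%), and the lowest mitochondrial share, 3.05% (nearest 3.70%). Cd209a was far higher in PBMCsec library 1, at 1453 CPM (nearest 774 CPM). H2-Ab1 was low in vehicle library 1, at 8053 CPM (nearest 10545 CPM). Ccl22 at 14.4 CPM in vehicle library 3 and Cacnb3 at 17.3 CPM in vehicle library 2 had no UMI in the other vehicle libraries. Ifi27l2a was low in vehicle library 3, at 743 TMM CPM (nearest 845). In PBMCsec library 2, Clec4e reached 808 TMM CPM (nearest 85.3) and Fth1 reached 21718 TMM CPM (nearest 5756). Hbb-bs was flagged because its treatment difference in the dendritic cells differed from that in macrophages, by -8.39 on the log2 scale, with 603 of its 659 UMIs in the dendritic cells in 1 cell of vehicle library 3.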

How the results depend on the processing

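The share of filtered cells, PBMCsec minus vehicle, lay between -0.214 and 0.490 percentage points when each library was left out, changed sign without PBMCsec library 1 (-0.180), vehicle library 3 (-0.182) or vehicle library 4 (-0.214), and was -0.394 in the libraries numbered 1 and 2 alone. The share among antigen-presenting cells lay between -9.52 and -0.296, and was 0.219 in the libraries numbered 3 and 4 alone. Median depth lay between -531 (without PBMCsec library 2) and 2398 UMIs and was -110 without vehicle library 3. The mitochondrial share lay between -0.950 and 0.0607 (without vehicle library 2). None of these 4 passed in any setting, and the cause was not tested. Exact tests in the libraries numbered 1 and 2 or 3 and 4 alone, where run, could not pass. The same holds for those with the block, as both have too few labellings for a p under 0.05. The share with Cd209a or Mgl2, which has no test, lay between -0.769 (without vehicle library 1) and 16.8.

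The number of genes called between treatments was 0 to 0 with each library left out and 73 without a filter on low counts. That setting adds genes with few UMIs but also called genes of the main fit, Cxcl2 and Fth1 among them, and the cause was not tested. In the libraries numbered 3 and 4 alone 1 gene was called (Krt15, a keratin gene at 39.3 and 40.4 CPM against 313 and 463 CPM, adjusted p 0.00574 in edgeR). With the replicate block 1 gene was called (Clec4e), and the block changed no other call. The interaction with macrophages gave 0 to 2 genes with each library left out, 12 without the filter and 0 at a limit of 5% mitochondrial UMIs. It was 0 without PBMCsec libraries 3 or 4 or vehicle library 3, and 2 without vehicle library 4. Of 435 alternatives for the 27 genes named for treatment, 428 kept direction and call, none changed sign, and 7 became called, 6 of them without the filter (Cd7, Clec4e, Fth1, Hmgb2, Cxcl2 and Ccl24). Settings in which a gene was filtered out are not counted, which leaves 11 for Clec4e against 17 for Cd7. The DESeq2 setting of Clec4e, which gave no p-value, counts as kept. The genes were named by their p in these same libraries, so a kept direction is no independent support.

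The counts of genes higher in the dendritic cells stayed within 1.5 times when 5% mitochondrial UMIs were the limit or Cd209a or Mgl2 was required, and the counts of lower genes were not recomputed. Medians of lists without PBMCsec library 2 were added after seeing the data. Leaving out members with 2 or more UMIs of other cell types was not run, since it leaves 20 of 250, and a limit of 0.5% of UMIs, chosen after seeing the data, left out 9 and changed no call. Leaving out libraries with under 10 members changes nothing, since the smallest has 12. The 3 smallest libraries held 12 to 14 members.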
